A study of Mus musculus with 108 samples.

Results

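The 10 genes described here are the Keap1-Nrf2 axis and a set of its targets: Keap1, Nfe2l2, Mafk, Nqo1, Gstt3, Hmox1, Gclc, Gclm, Txnrd1 and Srxn1. They were found by matching the Ensembl identifiers of the deposited table to these symbols, 10 of 53465 genes in all. The members were chosen by name with the genotype fold changes of these same libraries already known, so the differences between genotypes are given as a description, whereas ages and regions were compared by test in WT mice.

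Keap1 is the adaptor that brings the transcription factor Nrf2, the product of Nfe2l2, to the Cul3 ubiquitin ligase, so that Nrf2 is continuously made and destroyed in unstressed cells. When oxidants or electrophiles modify Keap1, Nrf2 escapes degradation, pairs with a small Maf protein such as MafK, and binds antioxidant response elements near genes of glutathione synthesis, thioredoxin recycling, quinone reduction and heme breakdown. In the brain the pathway is known best for its activity in astrocytes. Because much of this control acts on the Nrf2 protein, the mRNA of Nfe2l2 is only a partial gauge of it, and no protein value was used here.

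Total RNA depleted of ribosomal RNA was sequenced from 3 brain regions, CX (cortex), HIP (hippocampus) and CB (cerebellum), in wild-type (WT) and Cul3+/- (HET) mice. The ages were embryonic (E17.5), early postnatal (P7) and the adult stage labelled P35. All mice were of C57BL/6N background (the strain label reads C56Bl/6N), and HET mice carried in the germline, and so in every cell, a 1-base frameshift insertion in exon 6 of Cul3 from a single CRISPR/Cas9 line. Mice P35_22 and P35_23 were left out because their labels and the study's own quality table disagreed on the genotype. Without their 6 libraries of 108, the groups held 6 WT and 6 HET mice at E17.5 and at P7 and 5 of each in adults. The paper used males and females of each genotype, and the labels give no sex.

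Library totals ran from 15126114 to 44411282 expected counts. Cul3 itself marked the genotypes: in E17.5 CX its level was 198 ± 6.34 CPM (counts scaled to the library total) in WT and 115 ± 3.65 in HET (SD, n = 6 each), and the genotypes did not overlap in any of the 9 datasets. Its log2 fold change lay between -0.74 (P35 CB) and -0.99 (P35 HIP). In the main fits made here, Cul3 was the single gene that passed a false discovery rate (FDR) of 0.1 in each dataset. Markers of the choroid plexus, the epithelium that secretes cerebrospinal fluid, summed to over 1000 CPM in 13 libraries of HIP and CB and in none of CX. Fits without those libraries were chosen after seeing the data, and their values are given where they moved a result.

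Promoter windows from RefSeq (GRCm38.p6, 250 bases before to 50 after the start) covered 8 of the 10 genes, all but Hmox1 and Gclc. They were searched on both strands for TGACNNNGC, the core of the antioxidant response element. A core was found for 5 of these 8 genes, against 14% of the 27025 genes in the RefSeq table and 12.4% of its 32851 windows. The stretches are shown because they hold the letters through which Nrf2 and small Maf proteins are known to act. They are printed in the direction of the gene, with the core or its reverse complement in capitals.
Nfe2l2, chr2:75704885-75704913, minus strand: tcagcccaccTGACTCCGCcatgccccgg
Mafk, chr5:139791513-139791541, plus strand: gatcccggaaGCGGTGTCAgtactgggga
Gclm, chr3:122245413-122245441, plus strand: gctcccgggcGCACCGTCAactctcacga
Txnrd1, chr10:82859104-82859132, plus strand: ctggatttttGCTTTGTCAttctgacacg
Srxn1, chr2:152105542-152105570, plus strand: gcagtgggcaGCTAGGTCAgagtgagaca

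The Nfe2l2 core lay on the gene's own strand and the other 4 on the opposite strand. The Txnrd1 match was in 1 of its 3 windows. None of the 5 overlapped TGANTCA, the related AP-1 motif, which 8.97% of genes in the table held. Among the 8 genes, Srxn1 alone held TGANTCA, at 2 positions. The windows of Keap1, Nqo1 and Gstt3 held no TGACNNNGC, which says only that these letters are not there. A match describes the letters and was not tested as a binding site.

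Set against exon length, the genes spanned a wide range of levels. In E17.5 CX of WT mice, Txnrd1, the cytosolic thioredoxin reductase, led with 28.1 CPM per kilobase of exon. The level of Keap1 was 12.6 CPM per kilobase, that of Nfe2l2 1.74 and that of Gstt3 0.0218. In adult CX the highest was Srxn1, the sulfiredoxin that restores overoxidised peroxiredoxins, at 34.7 CPM per kilobase. There Gclc had 14.6, Keap1 13.9 and Txnrd1 8.07 CPM per kilobase. Txnrd1 was the highest of the 10 in all 3 regions at E17.5 and Srxn1 in all 3 in adults, whereas Gstt3 was the lowest in all 9 WT groups. Gstt3 had 1 to 119 counts per library with a median of 20.5, Nqo1 had 3 to 428 and Hmox1 27 to 245, and these scarce genes carried the widest standard errors by median. The other 7 genes had at least 137 counts in every library.

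**Figure D1:**
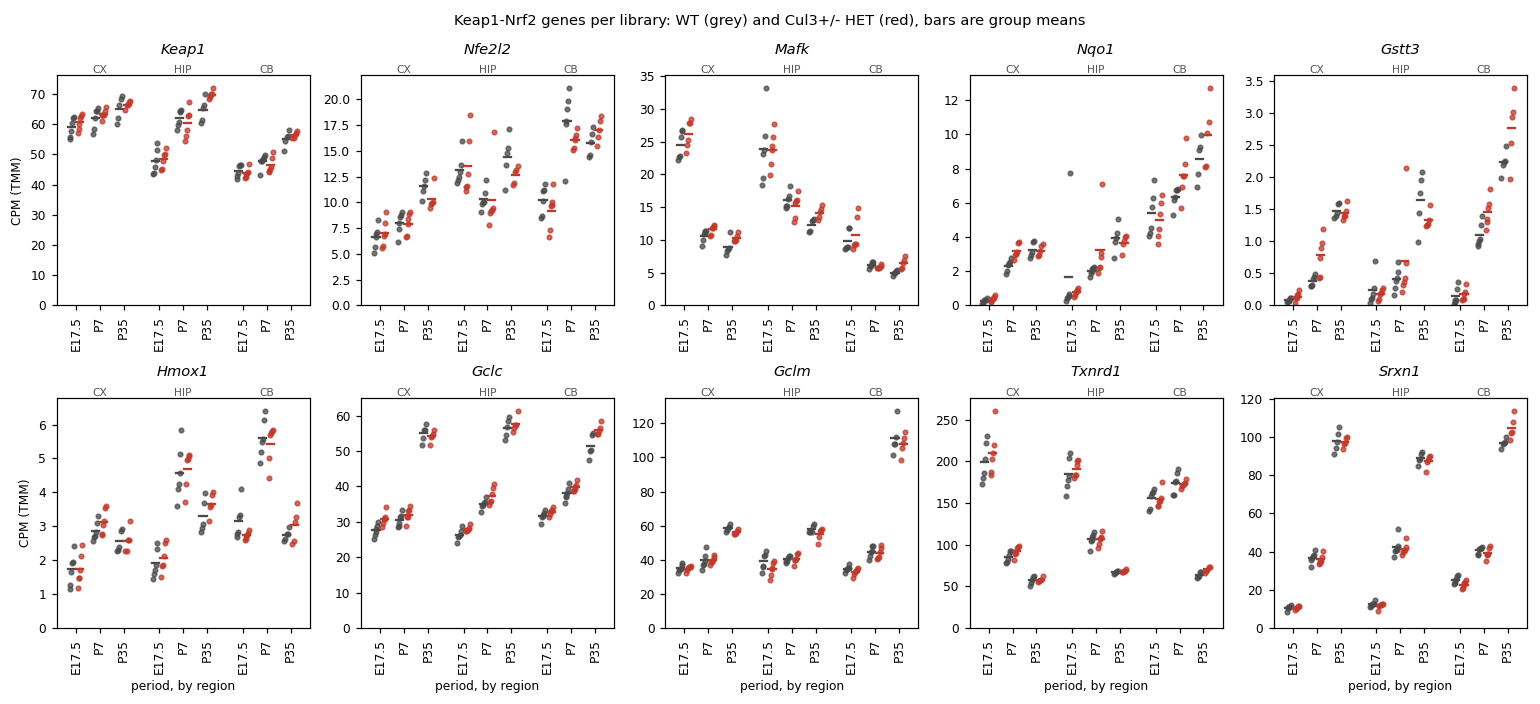
Each panel plots 1 gene: the vertical axis is CPM after TMM scaling, the horizontal axis the 3 periods within CX, HIP and CB, and points are single libraries of WT and HET mice (6 per group, 5 at P35). Mean Srxn1 in WT CX goes from 10.5 CPM at E17.5 to 98.0 at P35 and mean Txnrd1 from 199 to 57.2.

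Keap1, the repressor (ENSMUSG00000003308, chr9:21229730-21239361 of GRCm38, minus strand), varied least. Its highest WT group mean, 65.2 ± 4.03 CPM in P35 CX (SD, n = 5), was 1.46 times its lowest, 44.6 ± 2.01 in E17.5 CB (n = 6). In the order of its 9 group means, each group overlapped the next in library range. In HIP, WT libraries ran from 43.4 through 47.0 to 53.9 CPM (lowest, median, highest) at E17.5 and from 58.2 through 62.4 to 64.7 at P7, so the ages did not overlap. This was a rise of 0.36 ± 0.06 on the log2 scale (SE, adjusted p = 3.93e-05). From P7 to adult CB it rose by 0.22 ± 0.05 (adjusted p = 0.000352), and the other 4 steps between ages, from 0.02 to 0.11, did not pass. The CB step to P7 passed without libraries over 1000 CPM of choroid plexus markers (0.11, adjusted p = 0.0408 in edgeR). In HET mice that step was 0.08 (adjusted p = 0.0780). The later steps there were 0.26 in HIP and 0.10 in CX (adjusted p = 0.00095 and 0.0209), and the earlier CX step, 0.01, was not called. Keap1 was lower in CB than in CX at each age, with differences of -0.38, -0.33 and -0.25 on the log2 scale at E17.5, P7 and P35 (largest adjusted p = 0.000593).

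Nfe2l2, which encodes Nrf2 (ENSMUSG00000015839, chr2:75675513-75704641, minus strand), was highest in P7 CB, at 17.9 ± 3.13 CPM, and lowest in E17.5 CX, at 6.61 ± 1.1. In WT CB the libraries ran from 8.49 through 10.6 to 11.8 CPM at E17.5 and from 12.1 through 18.5 to 21.1 at P7. Every P7 library lay above every E17.5 library, and the rise was 0.79 ± 0.11 (adjusted p = 5.23e-06). In HIP the steps were -0.36 ± 0.10 to P7 and 0.50 ± 0.11 to the adult (adjusted p = 0.00450 and 0.000645), a fall and then a rise. The later HIP step was 0.37 without libraries over 1000 CPM of choroid plexus markers (adjusted p = 0.0160 in edgeR). In HET mice the HIP steps were -0.43 (adjusted p = 0.0281) and 0.34, the latter not called (adjusted p = 0.105). In CX of WT mice Nfe2l2 rose by 0.57 ± 0.12 from P7 to the adult (adjusted p = 0.000547). The earlier step in CX, 0.22 ± 0.12, passed (adjusted p = 0.0909) but was lost in 8 of the 17 fits without 1 WT mouse, and in HET mice it was 0.12 (adjusted p = 0.346). From P7 to adult CB the step was -0.17 ± 0.12 (adjusted p = 0.183), and -0.34 without libraries over 1000 CPM of choroid plexus markers (adjusted p = 0.00896).

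Between regions, Nfe2l2 at P7 was higher in CB than in CX by 1.21 ± 0.08 and than in HIP by 0.85 ± 0.08 (adjusted p = 1.45e-09 and 1e-07). At E17.5 HIP was the highest, above CX by 1.03 ± 0.13 (adjusted p = 4.02e-05), and CB over HIP was -0.36 ± 0.13 (adjusted p = 0.0367). That last call was lost without WT mouse 3 (-0.30) or mouse 4 (-0.25). In adults CB exceeded CX by 0.44 ± 0.07 (adjusted p = 0.000154).

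Mafk encodes a small Maf partner, which activates with Nrf2 and represses with Bach1 (ENSMUSG00000018143, chr5:139791513-139802653, plus strand). It fell in all 6 steps between ages. In WT CX the libraries ran from 22.2 through 24.2 to 26.8 CPM at E17.5 and from 9.02 through 11 to 11.4 at P7. The ages did not overlap, and the step was -1.25 ± 0.09 (adjusted p = 8.93e-10). The same step was -0.59 ± 0.11 in HIP and -0.68 ± 0.09 in CB (adjusted p = 0.000156 and 4.59e-06). The later steps were -0.22 in CX, -0.36 in HIP and -0.31 in CB (adjusted p = 0.0642, 0.0171 and 0.00984), and the CX one was lost in 7 of the 17 fits without 1 mouse. In HET mice these later steps in HIP and CB were -0.06 and 0.13, neither called.

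CB held the least Mafk at every age. Its difference from HIP was -1.28, -1.30 and -1.30 on the log2 scale at E17.5, P7 and P35, and from CX -1.29, -0.72 and -0.85 (largest adjusted p = 6.33e-06). HIP exceeded CX after birth, by 0.58 at P7 and 0.45 at P35 (adjusted p = 1.11e-05 and 0.00135). At E17.5 that difference was -0.01 ± 0.14 and not called.

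Nqo1 encodes a quinone reductase that is the textbook Nrf2 target (ENSMUSG00000003849, chr8:107388225-107403206, minus strand). It had the widest range of the 10, with group means of 0.266 ± 0.126 CPM in WT E17.5 CX and 8.58 ± 1.24 in P35 CB, a ratio of 32.3. In CX the WT libraries ran from 0.105 through 0.290 to 0.454 CPM at E17.5 and from 1.86 through 2.41 to 2.76 at P7. The ages did not overlap, and the rise of 3.06 ± 0.23 (adjusted p = 8.13e-10) was followed by one of 0.52 ± 0.19 to the adult (adjusted p = 0.0223). That later step was 0.04 in HET mice and not called (adjusted p = 0.833 in edgeR). CB exceeded CX by 4.53, 1.5 and 1.39 at E17.5, P7 and P35, and HIP by 2.55, 1.71 and 1.15 (largest adjusted p = 0.00234). The E17.5 difference of CB over HIP was 3.51 without the library described next (adjusted p = 5.78e-07).

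A single library set the Nqo1 values of E17.5 HIP. WT mouse 2 had 7.75 CPM and a choroid plexus sum of 4742 CPM, and the other 5 WT libraries had 0.248 to 0.637 CPM of Nqo1. With it, the step from E17.5 to P7 in HIP was 0.18 ± 0.61 and was not called. Without libraries over 1000 CPM of choroid plexus markers it was 2.09 (adjusted p = 3.8e-07), and in HET mice 2.02 (adjusted p = 8.32e-06). The difference of HIP over CX at E17.5 was 1.98 with that library and 0.84 without it, both called (adjusted p = 0.0344 and 0.0590). From P7 to adult HIP the step of 0.98 ± 0.62 was not called and became 0.78 without such libraries (adjusted p = 0.00365).

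Gstt3 is a theta-class glutathione transferase (ENSMUSG00000001665, chr10:75774115-75781414, minus strand). Its group mean was 0.0838 ± 0.0261 CPM in WT E17.5 CX, 0.376 ± 0.0829 at P7 and 1.47 ± 0.105 in the adult. These rises were 2.08 ± 0.24 and 1.99 ± 0.17 on the log2 scale (adjusted p = 2.64e-07 and 1.11e-08). The CB rises were 2.92 ± 0.34 and 1.04 ± 0.27 (adjusted p = 5e-07 and 0.00175). In HIP the first step, 0.67 ± 0.48, was not called, but was 1.5 and called without E17.5 WT mouse 2. The later HIP rise was 2.02 ± 0.42 (adjusted p = 0.000515). In HET mice the rises from P7 to adult were 0.92 in CX, 0.97 in HIP and 0.94 in CB (largest adjusted p = 0.0658). CB exceeded CX by 1.6 at P7 and 0.58 at P35 (adjusted p = 7.55e-06 and 0.00638), and Gstt3 was too low to be tested between regions at E17.5.

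Hmox1 encodes the inducible heme oxygenase (ENSMUSG00000005413, chr8:75093621-75100589, plus strand), and its means were highest at P7 in all 3 regions. In WT CB the libraries ran from 2.69 through 3.06 to 4.09 CPM at E17.5, from 4.87 through 5.53 to 6.41 at P7 and from 2.56 through 2.77 to 2.97 in adults. The P7 libraries stood above all others, with steps of 0.81 ± 0.11 and -1.02 ± 0.11 (adjusted p = 2.28e-06 and 1.42e-07). In HIP the steps were 1.25 ± 0.16 and -0.45 ± 0.16 (adjusted p = 1.36e-06 and 0.0235). In CX it rose by 0.68 ± 0.16 to P7 (adjusted p = 0.000685), and the later step, -0.13 ± 0.16, was not called. CB exceeded CX by 0.91 at E17.5 and 1.02 at P7 (adjusted p = 0.000558 and 3e-07), and the adult difference was 0.10 ± 0.11.

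Gclc and Gclm encode the catalytic and the modifier subunit of glutamate-cysteine ligase, which limits the rate of glutathione synthesis. Gclc (ENSMUSG00000032350, chr9:77754535-77794485, plus strand) rose late. Its WT libraries in CX ran from 28.4 through 30.5 to 33.3 CPM at P7 and had 51.6, 53.7, 55.9, 56.1 and 57.5 CPM in adults. The ages did not overlap, and the rises from P7 were 0.88 in CX, 0.71 in HIP and 0.45 in CB (largest adjusted p = 2.56e-07). The earlier rises were 0.40 in HIP and 0.25 in CB (adjusted p = 2.53e-06 and 0.000273), and in CX the step was 0.10 ± 0.06 and not called.

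Gclm (ENSMUSG00000028124, chr3:122245557-122270732, plus strand) parted from Gclc in adult CB. There its WT libraries had 101, 108, 108, 112 and 127 CPM, against 56.2 to 60.7 in CX and 56.1 to 60.7 in HIP. Every CB library was above all of CX and HIP, and CB exceeded CX by 0.92 ± 0.06 (adjusted p = 1.03e-08), whereas the same difference of Gclc was -0.10 ± 0.05. From P7 to adult, Gclm rose by 1.33 in CB, 0.60 in CX and 0.55 in HIP (largest adjusted p = 6.03e-06). From E17.5 to P7 it rose by 0.35 in CB (adjusted p = 3.39e-05), while the CX call of 0.12 was lost in 11 of the 17 fits without 1 mouse. The expected counts of Gclm were fractional in every library, and it overlaps Gm6061 on its own strand and Gm17494 on the other, with mean counts of 35.2 and 196 per library.

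Txnrd1 (ENSMUSG00000020250, chr10:82833951-82897712, plus strand) fell in 5 of 6 steps, all but that from E17.5 to P7 in CB. In WT CX the libraries ran from 173 through 195 to 231 CPM at E17.5, from 78.0 through 85.0 to 92.7 at P7 and from 50.6 through 57.3 to 62.2 in adults. No ages overlapped, and the steps were -1.27 ± 0.08 and -0.54 ± 0.08 (adjusted p = 9.33e-11 and 1.88e-05). HIP followed with -0.81 and -0.64 (adjusted p = 1.31e-08 and 9e-07). In CB it rose by 0.15 ± 0.06 to P7 (adjusted p = 0.0337), and the later step was -1.44 ± 0.06 (adjusted p = 2.69e-13). CB over CX was -0.32 ± 0.06 at E17.5 and 1.08 ± 0.05 at P7 (adjusted p = 0.000749 and 1.31e-11).

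Srxn1 (ENSMUSG00000032802, chr2:152105516-152111376, plus strand) rose in all 6 steps. In WT CX the libraries ran from 8.23 through 10.8 to 11.9 CPM at E17.5, from 31.9 through 37.3 to 40.8 at P7 and from 91.2 through 97.7 to 106 in adults. No ages overlapped. The steps were 1.75 and 1.45 in CX, 1.76 and 1.09 in HIP and 0.67 and 1.26 in CB (largest adjusted p = 2.03e-09), and in HET mice they lay between 0.79 and 1.82. CB exceeded CX by 1.29 ± 0.09 at E17.5 and 0.20 ± 0.05 at P7 (adjusted p = 5.73e-08 and 0.00284), and the adult difference was -0.02 ± 0.04. The 3 adult groups, at 88.9 to 98.0 CPM, led the order of its group means.

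**Figure D2:**
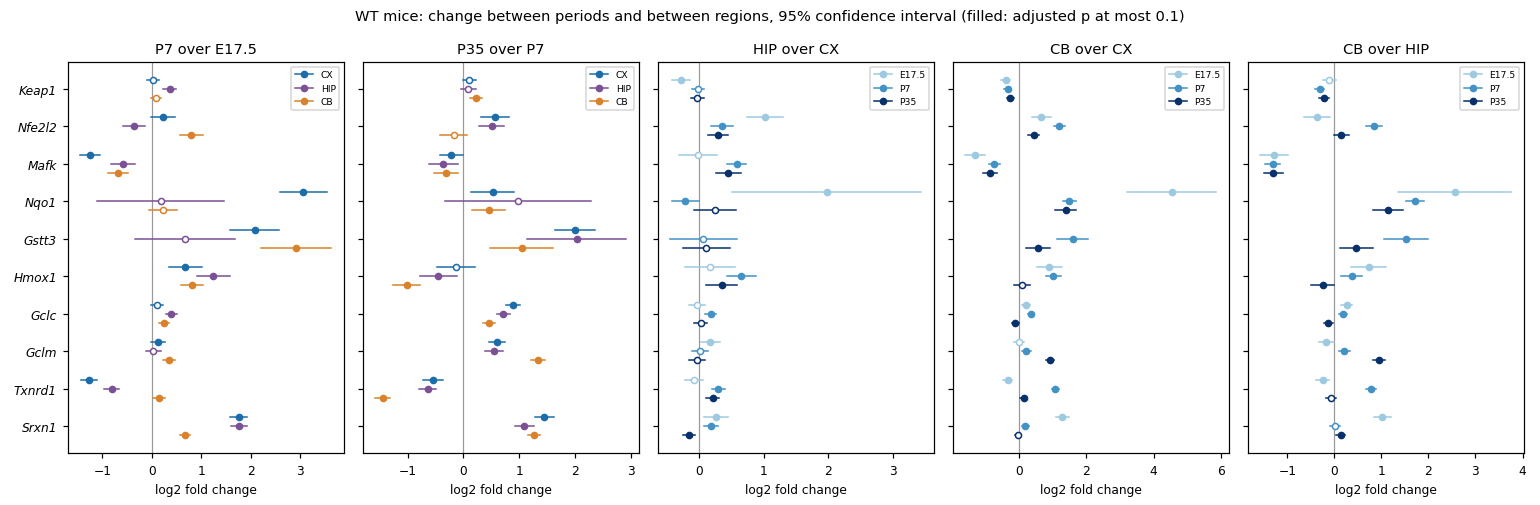
The axes of log2 fold change in WT mice show steps between periods and differences between regions for the 10 genes; points are edgeR estimates, lines 95% confidence intervals, and filled points passed an adjusted p of 0.1. Srxn1 is above 0 and Mafk below 0 in all 6 steps between periods, and Nqo1 reaches 4.53 for CB over CX at E17.5.

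Age and region moved most genes of the transcriptome, and the members' counts are read against that background. From E17.5 to P7, 8 of 10 passed in CX (81.9% of all genes tested), 7 in HIP (78%) and 8 in CB (71.2%). From P7 to adult, 8 passed in CX (67.7%), 8 in HIP (62.7%) and 9 in CB (79.4%). These shares are near the background.

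Between regions at E17.5, 5 of 9 tested passed for HIP over CX (46.5% of all genes), 8 for CB over CX (61.7%) and 8 for CB over HIP (49.5%). At P7, 7 of 10 passed for HIP over CX (57%), 10 for CB over CX (82.9%) and 9 for CB over HIP (78.2%). In adults, 5 passed for HIP over CX (51.5%), 8 for CB over CX (75.4%) and 9 for CB over HIP (75.1%). The 5 for adult HIP over CX became 2 without the libraries over 1000 CPM of choroid plexus markers. In that fit of fewer libraries, Nfe2l2, Hmox1 and Gclc lost their calls for adult CB over HIP (adjusted p = 0.241, 0.344 and 0.407 in edgeR). Gclc also lost its call for adult CB over CX (adjusted p = 0.639).

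In bulk tissue, fewer cells of a type and less RNA per cell cannot be told apart, and markers of other cell types moved with age as well. Summed markers of oligodendrocytes, for example, had a WT median of 117 CPM in P7 CX and 4161 CPM in P35 CX. The part of cell make-up in the differences between ages and regions was not tested.

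Nqo1 and Gstt3 were high in the libraries of HIP richest in choroid plexus markers. The P7 HIP library of HET mouse 1 had a marker sum of 4305 CPM, 7.12 CPM of Nqo1 and 2.15 CPM of Gstt3, while the other 5 HET libraries had 1.89 to 3.04 CPM of Nqo1 and 0.214 to 0.666 CPM of Gstt3. It was the highest of its group for both genes, as E17.5 HIP WT mouse 2 was. In P7 CB, 4 HET libraries and 1 WT library exceeded 1000 CPM of the markers, with median sums of 1489 CPM in HET and 35 CPM in WT. In P7 CX the sums were low in both genotypes, 7.12 to 41.9 CPM in WT and 6.54 to 30.9 CPM in HET.

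**Figure D3:**
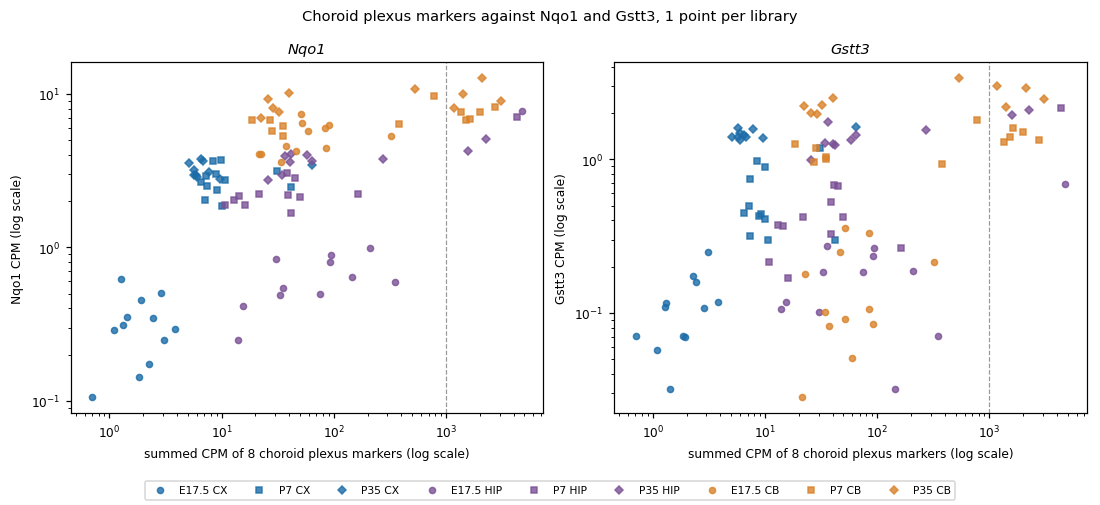
Both axes are logarithmic: the horizontal axis is the summed CPM of 8 choroid plexus markers and the vertical axis the CPM of Nqo1 or Gstt3 in every library used, marked by region and period. The line is at 1000 CPM, 13 libraries lie beyond it, and every CX library lies at 64.1 CPM or below.

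The next comparison asked whether the genes differ when 1 copy of Cul3, the ligase that carries Keap1, is lost. None of the members passed an FDR of 0.1 in any of the 9 datasets in the main edgeR fits, where in each case Cul3 alone did. As a share of all genes tested, that 1 gene was 0.00603%, 0.00586% and 0.00568% in CX, HIP and CB at E17.5, 0.00566%, 0.00563% and 0.0057% at P7 and 0.00569%, 0.00584% and 0.00584% in adults. In all, 86 combinations of member and dataset could be tested, since Nqo1 in E17.5 CX and Gstt3 at E17.5 had too few counts. The lowest adjusted p was 0.293, for Mafk in adult CB, and DESeq2 also called no member. RUVs, the study's own correction for unwanted variation, gave calls with 5 factors for Mafk in P35 HIP and Nqo1 in P7 CX and CB. With 3 factors it gave none. At an unadjusted p under 0.05 there were 13 of 86 in the main fits, of which 12 were higher in HET. In CX, HIP and CB these were 1, 0 and 1 members at E17.5 (1.67%, 2.29% and 3.5% of all genes), 2, 1 and 3 at P7 (3.22%, 5.05% and 4.89%) and 1, 2 and 2 in adults (3.66%, 6.25% and 14.4%). These values were in view when the genes were chosen and carry no weight as a test.

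At P7 the means of Nqo1 and Gstt3 were higher in HET in all 3 regions, though no difference passed the FDR in the main fits. In P7 CX, Nqo1 ran from 1.86 through 2.41 to 2.76 CPM in WT and from 2.65 through 3.08 to 3.70 in HET. Of the 6 HET libraries, 5 lay above the highest WT library. The log2 fold change was 0.45 ± 0.12 (SE, 95% interval 0.19 to 0.71). It was 0.30 ± 0.12 in CB and 0.66 ± 0.28 in HIP. The HIP value was 0.26 without HET mouse 1, the library rich in choroid plexus markers, and the CB value was 0.32 without its 5 such libraries.

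Gstt3 in P7 CX ran from 0.297 through 0.363 to 0.494 CPM in WT and from 0.427 through 0.819 to 1.19 in HET. Of the 6 HET libraries, 4 lay above the highest WT library and 6 above the WT median. The log2 fold change was 1.04 ± 0.27 (95% interval 0.47 to 1.62), and between 0.88 and 1.17 when each mouse was left out. In CB it was 0.44 ± 0.15, and 0.55 without the 5 libraries. In HIP it was 0.77 ± 0.53, and -0.02 without HET mouse 1. In adult CX, where group means were 1.47 CPM in WT and 1.45 in HET, it was -0.01 ± 0.13.

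Mouse names at P7 began with C1, C2 or C4, whose meaning the labels do not give. Each genotype had 2 mice of C1, 3 of C2 and 1 of C4, so the C4 values are single libraries. In CX the HET mean of Nqo1 was 3.42 CPM against a WT mean of 2.64 in C1. The same values were 3.20 against 2.08 in C2 and 2.65 against 2.46 in C4. For Gstt3 these means were 1.04 against 0.310, 0.715 against 0.447 and 0.446 against 0.297 CPM. Markers of other cell types moved too in P7 CX. Meningeal markers were higher in HET for 8 of 8, with sums of 183 to 286 CPM in WT and 157 to 393 in HET. Blood markers were higher for 6 of 6 (220.3 to 379.7 and 290.3 to 435 CPM) and endothelial markers for 7 of 8 (147 to 175 and 161 to 196 CPM), with no marker at 0. Fewer markers were higher in other lists: oligodendrocyte markers were higher in HET for 1 of 5 (101 to 137 and 81.4 to 117 CPM), microglial markers for 1 of 6 (128 to 165 and 114 to 146 CPM) and astrocyte markers for 1 of 6 (1545 to 2879 and 1420.2 to 1945 CPM). Border macrophage markers were higher for 4 of 6, ependymal for 4 of 5 and choroid plexus for 2 of 8. The part of these cell types in the Nqo1 and Gstt3 values was not tested.

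The mean of Mafk was higher in HET in all 3 adult regions, though no difference passed the FDR in the main fits. In adult CB the WT libraries had 4.46, 4.87, 4.88, 5.21 and 5.40 CPM and the HET libraries 5.55, 5.70, 6.49, 6.89 and 7.47. Every HET library was above every WT library, as for 1.28% of all genes in that dataset. The log2 fold change was 0.35 ± 0.10 (95% interval 0.13 to 0.57), and 0.41 without libraries over 1000 CPM of choroid plexus markers.

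In adult HIP, Mafk was 11.2, 11.4, 12.9, 13 and 13.1 CPM in WT and 13, 13.5, 14.3, 14.7 and 15.3 in HET. The groups overlapped at their edges, and the log2 fold change was 0.20 ± 0.07. In adult CX the WT libraries had 7.75, 8.37, 8.57, 8.72 and 11.2 CPM and the HET libraries 9.76, 9.82, 10.0, 10.5 and 11.2. All 5 HET libraries exceeded 4 of the 5 WT libraries, and the log2 fold change was 0.22 ± 0.09. Averaged per mouse over the 3 regions, the adult difference was 0.26 ± 0.06 (adjusted p = 0.575 in limma).

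At the earlier ages the Mafk difference averaged over regions was 0.08 ± 0.05 at E17.5 and -0.01 ± 0.05 at P7. The interaction of genotype and period in CB had an unadjusted p of 0.0572 and an adjusted p of 0.391, and 0.205 unadjusted without the choroid-rich libraries. In adult CB other markers moved as well: microglial markers were higher in HET for 6 of 6 (sums of 85.4 to 103 CPM in WT and 102 to 122 in HET). Meningeal markers were higher for 8 of 8 (162 to 204 and 183 to 217 CPM) and oligodendrocyte markers for 5 of 5 (2231 to 5115 and 4268 to 5411 CPM). Border macrophage markers were higher for 6 of 6 (9.03 to 13.2 and 12.5 to 17 CPM) and astrocyte markers for 5 of 6 (3348 to 4214 and 3389 to 3821 CPM). The counts were 7 of 8 for choroid plexus, 6 of 8 for endothelium, 4 of 5 for ependyma and 3 of 6 for blood. In adult HIP the markers higher in HET were 5 of 5 for oligodendrocytes, 5 of 8 for endothelium, 3 of 5 for ependyma, 3 of 8 for meninges, 2 of 6 for microglia, 1 of 6 for border macrophages, 1 of 6 for astrocytes, 0 of 6 for blood and 0 of 8 for choroid plexus. The part of these cell types in the Mafk values was not tested.

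**Figure D4:**
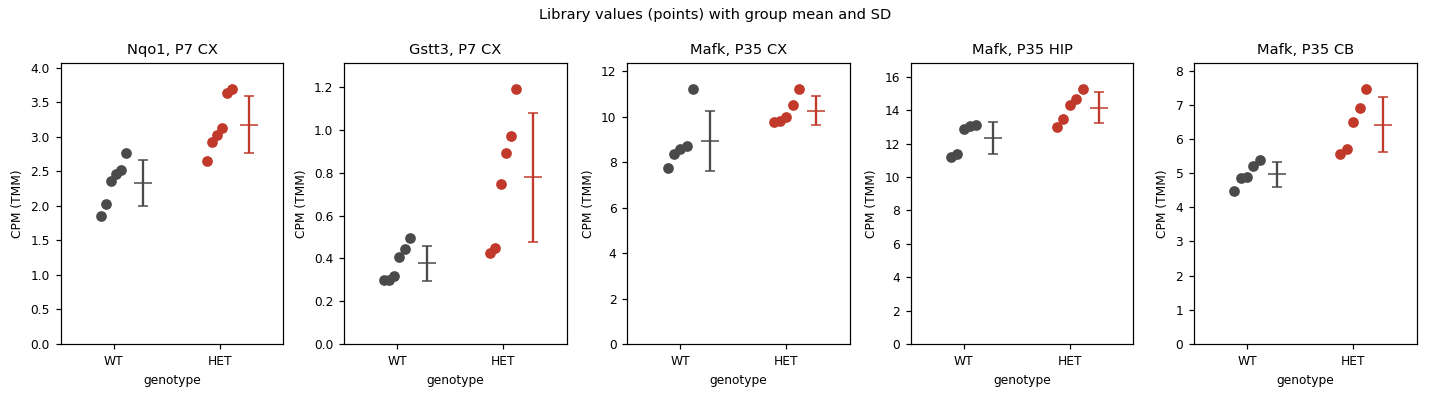
The vertical axes are CPM, points are single libraries of WT and HET mice, and the bar beside each group is its mean with 1 SD (6 mice per group at P7, 5 at P35). Nqo1 and Gstt3 in P7 CX and Mafk in the 3 adult regions are shown; the genotypes are apart for Mafk in P35 CB and overlap in the other 4 panels.

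The repressor and the activator differed little between genotypes. Keap1 lay between -0.04 and 0.11 on the log2 scale in the 9 datasets. The highest value was in adult HIP, where WT libraries had 60.4, 61.5, 65.4, 66.6 and 69.9 CPM and HET libraries 68.4, 69.0, 70.0, 70.0 and 71.9, which overlap. Of these, the WT libraries at 65.4 and 69.9 CPM exceeded 1000 CPM of choroid plexus markers. Without them the log2 fold change of Keap1 was 0.15 (unadjusted p = 0.00671, adjusted p = 0.237 in edgeR), above the range of the full groups. Nfe2l2 lay between -0.18 and 0.09. In adult HIP, its lowest value, it had 11.2, 13.7, 14.8, 15.2 and 17.1 CPM in WT and 11.7, 11.8, 12.9, 13.2 and 13.5 in HET, which overlap. The WT values of 15.2 and 17.1 CPM are those of its libraries over 1000 CPM of choroid plexus markers, and the log2 fold change of -0.18 was -0.06 without them. In P7 HIP it was -0.01, and -0.21 without HET mouse 1 (unadjusted p = 0.0189, adjusted p = 0.995 in edgeR), below the range of the full groups. The adult values of Nfe2l2 were -0.14 in CX, -0.18 in HIP and 0.09 in CB, and the interaction of genotype and region had an unadjusted p of 0.00966 and an adjusted p of 0.255. Without the choroid-rich libraries these were 0.0301 and 0.580.

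The remaining targets were as close. Txnrd1 was positive in 9 of 9 datasets, at most 0.12 ± 0.05, in adult CB. There WT libraries had 59.7, 60.9, 62.0, 67.4 and 67.5 CPM and HET libraries 66.2, 68.1, 70.1, 73.3 and 73.6. Gclc was positive in 8 of 9, with a highest value of 0.15, and Gclm was positive in 2 of 9, with a lowest of -0.19. Hmox1 lay between -0.20 and 0.16, and Srxn1 between -0.15 (E17.5 CB) and 0.09 (P35 CB). The outermost 95% bounds over the 9 datasets were -0.09 and 0.28 for Gclc, -0.13 and 0.28 for Txnrd1 and -0.34 and 0.20 for Srxn1. They were wider for the scarcer genes, -0.71 and 1.90 for Gstt3 and -2.85 and 1.27 for Nqo1. The Nqo1 value in E17.5 HIP was -1.19, and 0.70 without WT mouse 2. Gclm there was -0.24 without that mouse (unadjusted p = 0.0299, adjusted p = 0.744 in edgeR), below its lowest value in the full groups.

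**Figure D5:**
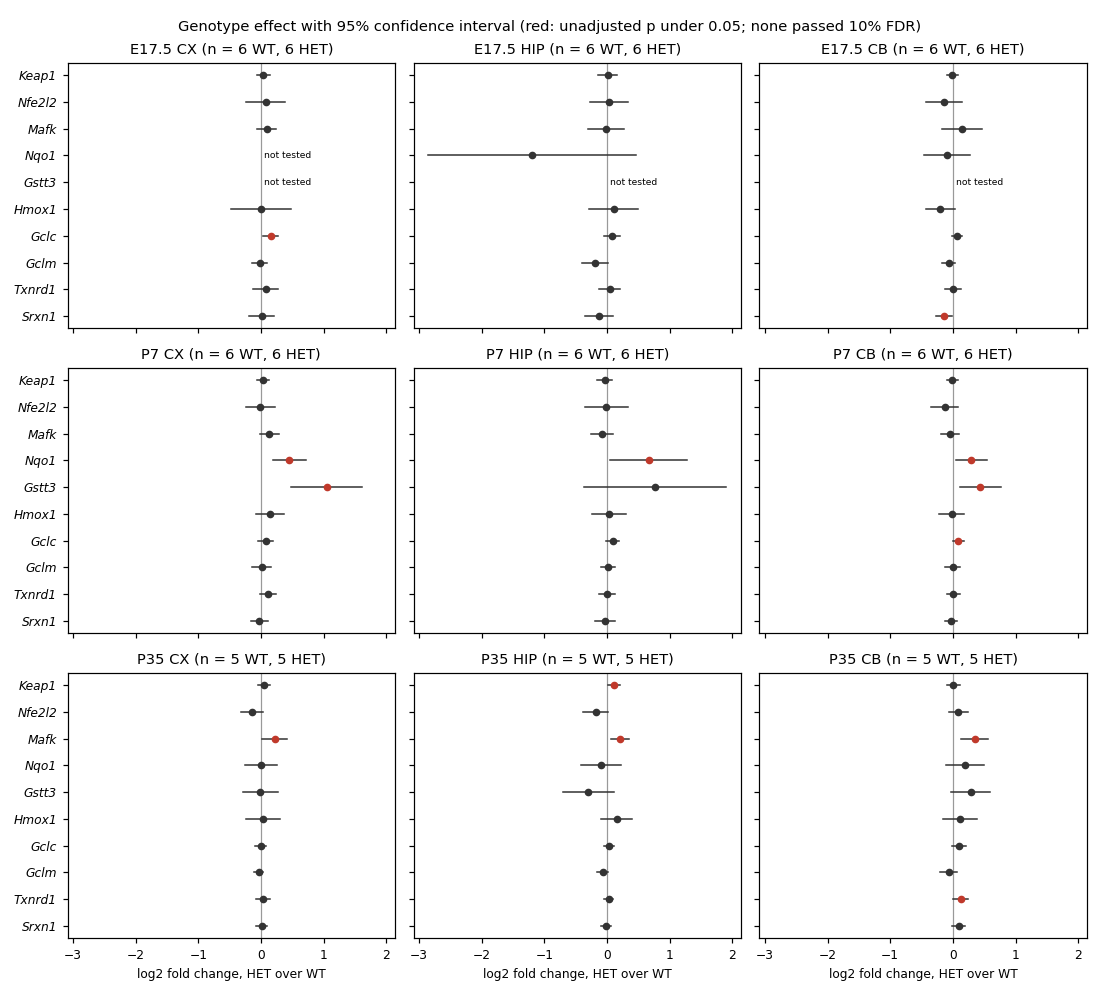
The log2 fold change of HET over WT is plotted with its 95% confidence interval for the 10 genes in each period and region. None passed an FDR of 0.1, and the lowest bound, -2.85, is that of Nqo1 in E17.5 HIP.

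Tests of whether the genotype difference itself changed with age or region called none of the members in 59 tests, where 0.00525% of genes passed in the adult fit over regions and 0% in the other 5. At an unadjusted p under 0.05 there were 5 of 59, against 2.1%, 4.09% and 13.2% of all genes with period in CX, HIP and CB and 2.5%, 4.57% and 15.8% with region at E17.5, P7 and P35. The lowest were 0.00406 for Srxn1 with period in CB (adjusted p = 0.307; 0.0613 unadjusted without the choroid-rich libraries) and 0.00551 for Gstt3 with period in CX (adjusted p = 1). For the mean over regions no member passed in limma at E17.5, P7 or P35, where 0.00537%, 0.00516% and 0.00525% of genes did, and 1, 2 and 1 had an unadjusted p under 0.05 (1.93%, 4.44% and 5.94% of all genes). At P7 the mean was 0.40 ± 0.11 for Nqo1 and 0.56 ± 0.21 for Gstt3 (adjusted p = 0.792 and 0.994). The means over regions hold the choroid-rich libraries and were not fitted without them.

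The wider pathway was read from a list of 96 genes in 6 groups. Apart from Cul3, which is on the list, none passed an FDR of 0.1 for genotype. In adult CB, 25 were higher and 6 lower in HET at an unadjusted p under 0.05, where 14.4% of all genes were under it. That share was not split by direction. The median of the 90 tested was 0.11 against 0.00 over all genes. The part of cell make-up was not tested for these list genes. The 3 with the lowest p were Slc3a2, a subunit of amino acid exchangers, in adult CX (0.18, adjusted p = 0.997), the membrane glutathione transferase Mgst1 in adult CB (0.53, adjusted p = 0.293) and the thioredoxin-binding protein gene Txnip in adult CB (0.48, adjusted p = 0.293).

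From E17.5 to P7 more of the list rose than fell in WT. In CX 53 of 89 tested rose and 21 fell, in HIP 52 and 24, and in CB 53 and 24. Of all genes, 41.3%, 38.9% and 35.7% rose in CX, HIP and CB and 40.6%, 39.1% and 35.5% fell. The medians were 0.46, 0.36 and 0.26, against 0.01, 0.00 and -0.01 over all genes. Of 16 thioredoxin and peroxiredoxin genes, 12, 12 and 13 rose in CX, HIP and CB, where 41.3%, 38.9% and 35.7% of all genes did. Among genes called in all 3 regions, the rises were led by Slc7a11, the cystine and glutamate exchanger (5.57, 2.73 and 2.77 in CX, HIP and CB), and the aldehyde dehydrogenase Aldh3a1 (1.67, 2.07 and 2.20). The falls were led by the Bach-family repressor Bach2 (-1.84, -2.65 and -0.86) and the glucuronosyltransferase Ugt1a6a (-1.39, -1.72 and -1.58).

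From P7 to adult the list split evenly, with 35 up and 34 down in CX, 34 and 33 in HIP and 38 and 39 in CB. Of all genes, 33.2%, 31.3% and 40% rose in CX, HIP and CB and 34.5%, 31.5% and 39.4% fell. The metallothioneins Mt1 (2.66, 2.14 and 3.04) and Mt2 (1.94, 1.51 and 2.73) led the rises. Idh1, a cytosolic source of NADPH (-2.40, -1.97 and -2.35), and Txnip (-1.29, -1.29 and -2.50) led the falls. In the NADPH group of 6 genes, 6 fell in CX, 5 in HIP and 4 in CB, and 1 rose, in CB. The share of all genes that fell was 34.5%, 31.5% and 39.4%.

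Between regions, genes called at every age were ranked by summed change, members aside. Mgst1 (3.10, 1.82 and 1.32 at E17.5, P7 and P35) and the stress-response pseudokinase gene Trib3 (2.70, 0.52 and 2.04) led for CB above CX. Nfe2l3, a relative of Nfe2l2 (-1.68, -2.54 and -0.69), and the small Maf gene Mafg (-0.50, -0.89 and -0.71) were furthest below. Against HIP, CB was higher in Trib3 (1.82, 0.97 and 2.32) and Mgst1 (1.84, 1.27 and 0.43). The member Nqo1 (2.55, 1.71 and 1.15) exceeded Mgst1 there at every age. CB was lower in the glutathione transferase Gstm6 (-0.67, -2.42 and -3.35) and the carbonyl reductase Cbr3 (-1.21, -1.32 and -1.52). HIP exceeded CX in the reductase Ptgr1 (2.12, 1.22 and 2.34) and Gstm6 (1.62, 1.41 and 2.14) and was below it in mitochondrial thioredoxin Txn2 (-0.68, -0.14 and -0.17) and the transporter Abcc5 (-0.37, -0.28 and -0.25).

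Across the 9 WT group means, which share mice and scaling, the 10 genes did not move as a block. Pearson's r ran from 0.94 (Gclc and Srxn1) and 0.92 (Gstt3 and Srxn1) to -0.90 (Txnrd1 and Srxn1) and -0.91 (Mafk and Nqo1), and was 0.79 for Gclc and Gclm. Among about 15200 genes with a WT mean of at least 1 CPM, the most similar profiles were those of Kcns3 and Dsg2 for Keap1 (0.982 and 0.979), Tns3 and Cerkl for Nfe2l2 (0.955 and 0.948) and Dmrta2 and Nrp1 for Mafk (0.970 and 0.967). They were Naglu and Gm15417 for Nqo1 (0.974 and 0.968), Hhatl and Pla2g4a for Gstt3 (0.992 and 0.985) and Gimap8 and Tap1 for Hmox1 (0.957 and 0.956) among the targets listed first. They were C330007P06Rik and Csrp1 for Gclc (0.995 and 0.987), Ficd and Klk6 for Gclm (0.989 and 0.988), Ruvbl2 and Cdk4 for Txnrd1 (0.995 and 0.995) and Mppe1 and Pex7 for Srxn1 (0.998 and 0.996) among the rest. These are likenesses over 9 points and carry no test.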

How the data were processed

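Per the submitters' processing notes, which name cutadapt 1.14, STAR 2.5.3a, RSEM 1.3 and GRCm38.p5, the authors trimmed and aligned the reads and deposited RSEM expected counts per gene, not normalized. These expected counts were rounded, and symbols were matched by Ensembl identifier for 53274 of 53465 genes. Levels are CPM after TMM scaling. Tests used edgeR 4.0.16 in R 4.3.3 (quasi-likelihood, TMM, filterByExpr with a minimum count of 10, Benjamini-Hochberg adjustment over all genes tested, FDR 0.1) within each period and region for genotype, within each region for periods in WT, and with mouse as a block between regions. Means per mouse over regions were tested with limma 3.58.1, and DESeq2 1.42.0 was an alternative. The fits were tested on simulated data. Mouse numbers are the labels' own within each group and differ between regions for some mice, so mice were matched by name. Labels name mice but no litters, so p-values measure the spread between these mice. Same-numbered WT and HET mice deviated together in all 6 pairs in E17.5 CX (r from 0.113 to 0.759). All pairs were also positive in P7 CX (r from 0.0873 to 0.331) and P35 CX (0.0123 to 0.271). In every other dataset some pair had a negative r. The median r of same-numbered pairs exceeded that of other pairs in all datasets but P7 HIP. The members, lists and comparisons were chosen with earlier results of these data known. All members are named, with the 2 genes most like each member. Apart from the members, the pathway genes of lowest p (genotype) or largest summed change, called at every age or region, are named.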

Additional observations from a re-analysis of the deposited data

Results flagged for a closer look

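Of 180 sets of values, each of 1 gene in 1 group of 5 or 6 libraries, 10 held a library that stood apart from the rest, with a gap above the 95% critical value of Dixon's test, in 8 of them as the highest. Some libraries stood apart for several genes. Chance alone gives about 1 in 20 sets. In E17.5 HIP, WT mouse 2 had 7.75 CPM of Nqo1 (0.248 to 0.637 in the others) and 0.692 CPM of Gstt3 (0.0319 to 0.272). In P7 HIP, HET mouse 1 had 16.9 CPM of Nfe2l2 (7.78 to 9.48), 7.12 CPM of Nqo1 (1.89 to 3.04) and 2.15 CPM of Gstt3 (0.214 to 0.666). In P7 CB, WT mouse 6 was the lowest for Keap1, at 43.2 CPM (47.8 to 49.8). These 3 libraries were among the 13 over 1000 CPM of choroid plexus markers.

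The other 4 values were Txnrd1 in E17.5 CB HET mouse 3, at 175 CPM (147 to 155), Srxn1 in E17.5 HIP HET mouse 4, at 8.66 CPM (11.7 to 12.4), Nfe2l2 in P35 CX HET mouse 4, at 12.3 CPM (9.47 to 10.1), and Mafk in P35 CX WT mouse 3, at 11.2 CPM (7.75 to 8.72). Without that last mouse the genotype difference of Mafk in P35 CX was 0.32 in place of 0.22.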

How the results depend on the processing

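No member was called for genotype when any 1 mouse was left out (0 to 0 calls in each of the 9 datasets). The same held with a replicate block (0 in each), DESeq2, upper-quartile scaling, no filter on low counts or a likelihood ratio test. It also held with the level of Xist as a covariate, a stand-in for sex. With 5 factors of unwanted variation (RUVs) there was 1 call in place of 0 in P35 HIP, P7 CX and P7 CB: Mafk (adjusted p = 0.0263), Nqo1 (0.0896) and Nqo1 (0.0538), and with 3 factors there was 0. The cause was not tested. For periods in WT the count of members called ranged from 6 to 10 when 1 mouse was left out, and for regions from 4 to 10. The count for WT P35 HIP over CX was 2 in place of 5 without libraries over 1000 CPM of choroid plexus markers, where fewer samples were fitted. Among period and region values called in WT or in HET, 3 had the other sign in HET mice: Mafk in CB at P35 over P7 (0.13, adjusted p = 0.385), Gclc in P35 CB over CX (0.016, adjusted p = 0.67) and Srxn1 in P35 CB over CX (0.074, adjusted p = 0.0900). Srxn1 in P7 CB over HIP was -0.10 without WT mouse 4 (adjusted p = 0.0722) in place of 0.01. The replicate block was fitted although same-numbered mice did not pair in every dataset. It moved no count of calls by more than 1.5 times. The Gclm step in CX from E17.5 to P7 lost its call under it (adjusted p = 0.154), while Nqo1 in CB over the same ages passed under it (0.0765). The low counts of Gstt3 and Nqo1 limit what could be detected for them, above all at E17.5.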
